A study of Mus musculus with 42 samples.

Results

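T, Eomes, Tbx6, Mixl1, Mesp1, Mesp2 and Evx1 are 7 transcription factor genes of the primitive streak. They were taken by name, as 7 of the 20972 genes that could be given a symbol on the arrays, and each was read from its brightest probe over all 42 arrays. Eomes and Tbx6 each have 2 probes and the others 1. The cells were dual reporter mouse ESCs of 1 line, with fluorescent reporters in the Gsc (GFP) and Hhex (RedStar) genes, carried by every group, which were differentiated towards anterior definitive endoderm (ADE) over 6 days. The 11 untreated groups were ESCs, unsorted cells of day 2 (d2), and sorted cells that were negative or positive for Gsc at d3 and d4 (G-, G+), Gsc negative, low or high at d5 (G-, Glow, Ghigh), and Gsc high with Hhex negative or positive at d6 (G+H-, G+H+). The 3 other groups were d6 cultures, for which the labels name no sort. Control had DMSO at a dilution of 1 in 4000 throughout, ADE_EPZ had DMSO as ESCs and 2.5 µM of the EZH2 inhibitor EPZ6438 during differentiation, and ES_EPZ had EPZ6438 as ESCs and DMSO during differentiation. Each group had 3 arrays, and the labels do not say whether these came from separate cultures, so p values measure the spread between these arrays.

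The primitive streak is the region of the gastrulating embryo where epiblast cells leave the epithelium and become mesoderm or definitive endoderm. T (brachyury), Eomes and Tbx6 are T-box factors: T is needed for posterior mesoderm and notochord, Eomes for definitive endoderm and the earliest mesoderm, and Tbx6 for paraxial mesoderm. Mixl1 is a paired-type homeobox gene of the streak with a role in endoderm formation, Mesp1 and Mesp2 are basic helix-loop-helix factors of nascent cardiac and of presomitic mesoderm, and Evx1 is an even-skipped type homeobox gene of the posterior streak. Wnt, Nodal, BMP and FGF signals act upstream of these genes.

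Levels are log2 intensity after the normalisation of the authors, so that a difference of 1 is a 2-fold change. A gene was called where the limma adjusted p was at most 0.01 and the log2 difference at least 1.5 in size. Levels of different genes come from different probes and are not compared. On the arrays, Gsc itself followed the sort in its means, with 8.23 and 11.78 in the G- and G+ populations of d3, and 10.69 and 12.95 in the Glow and Ghigh populations of d5. The d5 Glow arrays (9.46 to 12.41) overlapped for Gsc with those of Ghigh (12.23 to 14.06) and of d5 G- (8.45 to 9.80). Hhex RNA was high in both d6 populations, at 11.68 to 12.50 in G+H- and 12.52 to 12.86 in G+H+ cells. The Hhex sort thus separated it only narrowly, and the paper also reports Hhex RNA in both. The summed level of 6 pluripotency markers lay between 15.75 and 16.60 in ESCs and between 10.10 and 10.21 in d6 G+H+ cells, and that of 4 markers of definitive and anterior endoderm between 8.35 and 8.87 in ESCs and between 16.28 and 16.43 in d6 G+H+ cells. The arrays had 24459 to 40398 probes well above background, and no value was saturated. Untreated arrays filled 5 of the 8 slides and the EPZ6438 series the other 3, so that the series and the slides cannot be told apart. In bulk RNA, fewer cells that express a gene and less RNA per cell cannot be told apart either.

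Mesp1 and Mesp2 are next to each other among the protein-coding genes of chromosome 7, and they were the members with the largest and the third largest difference between sorted populations at d3. Their promoters are shown with that of Tbx6, the remaining member on chromosome 7, as the stretch from 250 bases before to 50 bases after the annotated start (RefSeq, GRCm38.p6). Of the 7 members, 6 had an entry in this table; Mixl1 did not. Capitals mark the motifs found among those searched on both strands, which were the T-box core GGTGTGA, the TCF/LEF motifs CTTTGAT and CTTTGTT, the homeodomain motif TAATCC, the FOXH1 motif AATCCACA and the TATA box TATAAA.

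Mesp1, chr7:79793541-79793840, minus strand: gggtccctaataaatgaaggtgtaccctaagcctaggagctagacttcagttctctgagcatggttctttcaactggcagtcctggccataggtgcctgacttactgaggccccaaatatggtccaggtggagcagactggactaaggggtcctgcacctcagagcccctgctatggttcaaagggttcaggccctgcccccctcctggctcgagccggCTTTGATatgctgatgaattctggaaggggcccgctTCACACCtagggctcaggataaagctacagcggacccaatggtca
Mesp2, chr7:79810477-79810776, plus strand: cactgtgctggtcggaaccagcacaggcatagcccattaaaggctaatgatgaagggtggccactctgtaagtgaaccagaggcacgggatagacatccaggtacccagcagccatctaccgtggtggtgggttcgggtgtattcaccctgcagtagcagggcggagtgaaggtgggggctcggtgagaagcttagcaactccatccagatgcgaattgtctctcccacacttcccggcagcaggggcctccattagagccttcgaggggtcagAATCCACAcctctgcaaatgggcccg
Tbx6, chr7:126781233-126781532, plus strand: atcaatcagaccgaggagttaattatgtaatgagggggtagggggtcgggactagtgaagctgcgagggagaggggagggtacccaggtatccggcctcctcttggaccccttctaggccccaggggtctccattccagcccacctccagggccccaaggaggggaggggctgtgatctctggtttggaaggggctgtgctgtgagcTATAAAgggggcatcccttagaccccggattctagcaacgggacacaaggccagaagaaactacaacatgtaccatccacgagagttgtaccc

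In the Mesp1 promoter CTTTGAT begins at -31 from the start, and the T-box core begins at +5, where it reads TCACACC because it is on the other strand. These motifs are found in 3.73% and 3.98% of 32851 promoters of this length. The Mesp2 promoter holds AATCCACA from +24, which is in 0.855% of promoters. In the Tbx6 promoter TATAAA begins at -43, a motif of 13.6% of promoters. None of these motifs was in the windows of T, Eomes and Evx1. CTTTGTT and TAATCC, in 5.85% and 7.06% of promoters, were in none of the 6 windows. A match is a run of letters only, and no binding was measured here.

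Between ESCs and d2, T, Eomes and Evx1 rose and the other 4 genes did not pass the test. Evx1 read 5.28, 5.62 and 5.47 on the ESC arrays and 10.14, 8.84 and 9.69 on the d2 arrays. The lowest d2 array stood well clear of the highest ESC array, with a mean difference of 4.10 on the log2 scale (SE 0.50, 17.1-fold, adjusted p 9.10e-07). T read 6.50, 7.16 and 7.03 in ESCs and 10.42, 7.74 and 9.90 at d2. Here d2 replicate 2 was far below the other d2 arrays and only just above the ESCs. The difference for T was 2.46 (SE 0.50, 5.49-fold, adjusted p 0.00126). Eomes read 7.51, 7.80 and 7.73 in ESCs and 10.01, 8.55 and 9.85 at d2, a difference of 1.79 (SE 0.33, adjusted p 0.000397), and again the same d2 array was the lowest without overlap. The call of T was lost without d2 replicate 1 (adjusted p 0.0273), without d2 replicate 3 (0.016) and without ESC replicate 1 (0.014), and the calls of T and Eomes were lost with only the arrays of ESCs and d2 in the fit. The second Eomes probe rose by 1.34 (adjusted p 0.000585), under the fold limit. So 3 of 7 members were called at d2, against 1.73% of all genes.

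Mixl1 was not well above background on any ESC or d2 array, with 4.30 to 4.75 in ESCs and 4.53 to 5.10 at d2. Mesp1 was well above background on none of the ESC arrays and on 1 of the d2 arrays. Tbx6 stayed between 6.08 and 6.81 over both groups, and Mesp2 between 6.05 and 6.60, with changes of -0.24 (adjusted p 0.953) and 0.37 (adjusted p 0.797). Among 17 genes of the inducing signals and their transducers, 5 were called at d2, with 4 higher and 1 lower. The T-box list (0 of 14), the presomitic and paraxial list (0 of 16) and the cardiac and lateral list (0 of 14) had no called gene. The Wnt effector Lef1 was 2.86 higher (SE 0.36, adjusted p 1.37e-06), the streak ligands Wnt8a and Fgf8 were 2.61 and 2.58 higher (SE 0.38 and 0.36), and Bmp4, a signal for posterior mesoderm, was lower (log2 difference -3.05, SE 0.68, adjusted p 0.00363). The median change over the 17 genes was 0.19, beside 0.02 over all genes.

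**Figure D1:**
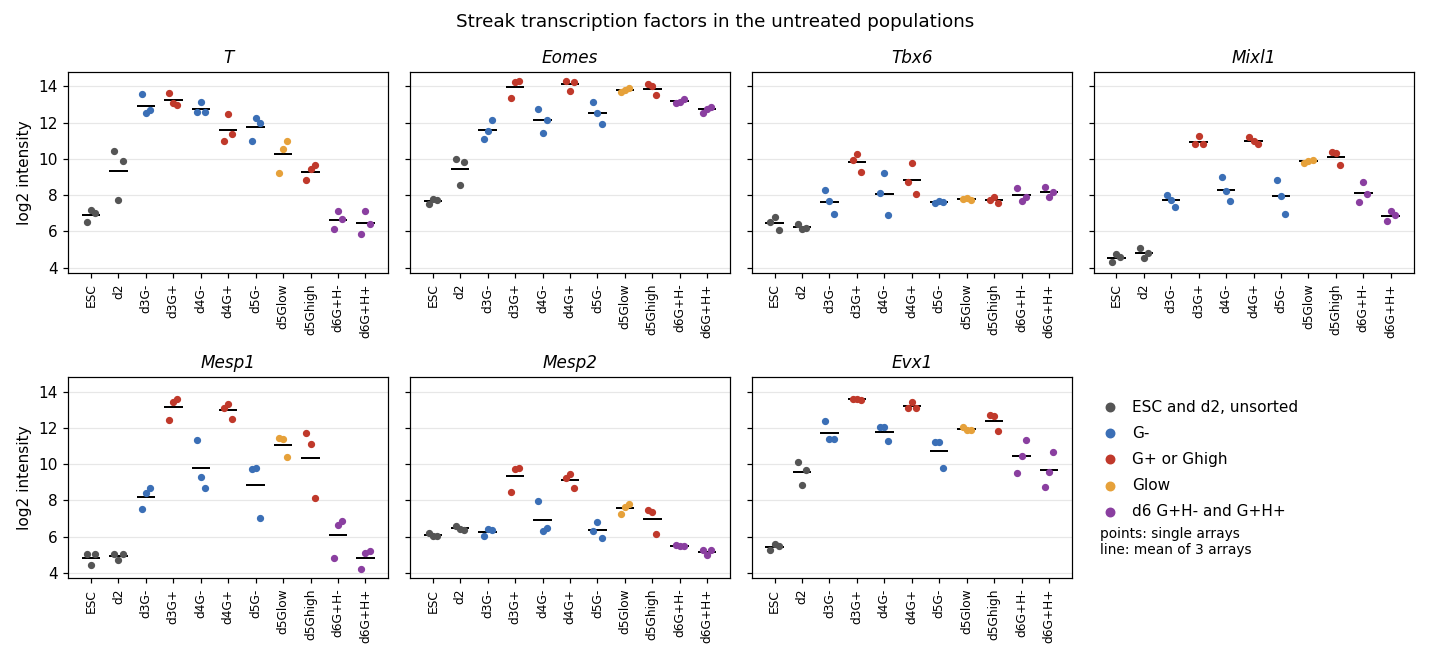
Log2 intensity of each gene (vertical axes, one scale) in the 11 untreated populations (horizontal axes), with a point for each array and a line at the mean of 3 arrays. T, Eomes and Evx1 are already raised at d2, while Mixl1 and Mesp1 first leave their ESC level at d3, and at d6 G+H+ the arrays of T and Mesp1 overlap with their own ESC arrays while those of Eomes lie above theirs.

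From d2 to d3 all 7 genes rose in G+ cells and 5 of them in G- cells. In the G+ population 7 of 7 members were called, all higher, against 5.72% of all genes. In the G- population T, Eomes, Mixl1, Mesp1 and Evx1 were called, 5 of 7 against 1.27%. Both comparisons share the d2 arrays. T was above d2 by similar amounts in both populations, while Evx1, Eomes, Mixl1 and Mesp1 were further above it in G+ than in G- cells. T was 3.58 above d2 in G- cells (SE 0.50, adjusted p 1.28e-05) and 3.88 above it in G+ cells (SE 0.50, adjusted p 3.58e-07), and Evx1 was 2.17 above d2 in G- cells (SE 0.50, adjusted p 0.00703) and 4.01 in G+ cells (SE 0.50, adjusted p 2.53e-07). Eomes was 2.11 above d2 in G- cells (SE 0.33, adjusted p 6.89e-05) and 4.49 in G+ cells (SE 0.33, adjusted p 3.19e-12).

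Mesp1 had the largest change, from a d2 mean of 4.93 to 8.21 in G- and 13.15 in G+ cells. Its difference of 8.22 between d3 G+ and d2 cells (SE 0.72, 298-fold, adjusted p 1.70e-10) rests on d2 arrays of which 1 was well above background. Mixl1, which was not well above background at d2, rose at least 7.10-fold in G- cells (adjusted p 9.96e-07) and at least 67.4-fold in G+ cells (adjusted p 9.54e-15), where each d2 array counts at the higher of its dimmest probe well above background and its own Mixl1 value. Mesp2 rose by 2.85 in G+ cells (SE 0.34, adjusted p 1.04e-07), and its difference between d3 G- and d2 cells was -0.20 (adjusted p 0.972). Tbx6 was 3.59 higher in G+ cells (SE 0.38, adjusted p 7.23e-09), with 1.13 for its second probe, which was not called, and 1.40 higher in G- cells, which did not pass (adjusted p 0.0225) and for which the second probe had the other sign (-0.11, adjusted p 0.969).

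In the G- comparison the calls of Mesp1 and Evx1 were the weakest. The call of Mesp1 was lost without any one of d2 replicates 1, 2 and 3 (adjusted p 0.0144, 0.027 and 0.0147) and of d3 G- replicates 2 and 3 (0.0181 and 0.0237). Evx1 lost its call without d2 replicates 2 or 3 (0.083 and 0.021) and without d3 G- replicates 1, 2 or 3 (0.0835, 0.0111 and 0.0124). Mesp1 also lost its call with a normexp offset of 50 and without background correction, and Evx1 with scaling to the 75th percentile. With only these arrays in the fit T, Eomes and Evx1 were not called. With slide as a block, Mesp1 (adjusted p 0.0218) and Evx1 (0.0135) were not called either, while Tbx6 was called without d3 G- replicate 3 (0.00795).

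Of the early cardiac and lateral mesoderm list, 8 of 14 genes were called from d2 to d3 G+, all higher, with a median log2 change of 2.29 beside 0.01 over all genes. The largest was Gata6, an endoderm and cardiac factor, at 6.82 (SE 0.33), followed by the receptor Pdgfra at 5.66 (SE 0.46), Snai1, a repressor of E-cadherin in cells leaving the epithelium, at 4.95 (SE 0.34), and Hand1 at 4.11 (SE 0.83). Of the presomitic and paraxial list 6 of 16 were called, 5 higher and 1 lower, led by the Wnt agonist Rspo3 (4.42, SE 0.65) and the Notch ligand Dll3 (3.75, SE 0.36), with Tcf15 lower (-2.96, SE 0.36). Of the 17 signal genes 5 were called, 4 higher and 1 lower, with the Wnt target Sp5 at 4.24 (SE 0.59) and Fgf8 at 3.60 (SE 0.36). Of the other T-box genes 2 of 14 were called, Tbx3 at 3.53 (SE 0.71) and Tbx20 at 2.43 (SE 0.49).

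At d3 the sort for Gsc separated 5 of the 7 genes, and T was not among them. Eomes, Tbx6, Mixl1, Mesp1 and Mesp2 were called, all higher in G+ cells, against 1.80% of all genes. Mesp1 gave 7.51, 8.43 and 8.70 in the G- population against 12.42, 13.43 and 13.61 in the G+ population. Every G+ array was far above every G- array, and the difference was 4.94 (SE 0.72, 30.7-fold, adjusted p 1.69e-05). For Mixl1 the G- arrays gave 8.03, 7.76 and 7.35 and the G+ arrays 10.83, 11.25 and 10.81, with a difference of 3.25 (SE 0.34, 9.49-fold, adjusted p 6.06e-08). Mesp2 read 6.04, 6.44 and 6.35 in G- cells, overlapping its ESC values, against 8.46, 9.75 and 9.77 in G+ cells, 3.05 higher (SE 0.34, adjusted p 2.07e-07).

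Eomes was present in both populations. The G- arrays gave 11.08, 11.53 and 12.14 and the G+ arrays 13.34, 14.23 and 14.30, 2.37 higher (SE 0.33, adjusted p 7.53e-06), and its second probe gave 2.45 (SE 0.25, adjusted p 4.84e-08). Tbx6 had 8.30, 7.66 and 6.96 on the G- arrays and 9.94, 10.29 and 9.26 on the G+ arrays, 2.19 higher (SE 0.38, adjusted p 0.000192). Its second probe moved the same way by 1.24 (SE 0.18, adjusted p 2.23e-05), which is under the fold limit, so that its call rests on the brighter probe. Evx1 was 1.84 higher in G+ cells with no overlap (11.37 to 12.40 against 13.54 to 13.59), but did not pass (SE 0.50, adjusted p 0.0259). With only the arrays of d3 G- and G+ in the fit, Eomes and Tbx6 were not called.

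T had 13.57, 12.55 and 12.69 on the d3 G- arrays and 13.62, 13.10 and 12.99 on the d3 G+ arrays. The populations overlapped, and the difference was 0.30 (95% interval -0.71 to 1.31, adjusted p 0.986). These arrays therefore show no difference in T between the Gsc sorts of d3 that is larger than the spread, and the interval still holds differences of up to 1.31 on the log2 scale. The pluripotency marker sum was 14.20 to 14.61 in the G- and 12.39 to 13.26 in the G+ population of d3, with no overlap, and the endoderm sum was 8.30 to 9.38 and 9.59 to 11.15. Their part in the sort differences was not tested.

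Beside the members, 4 of 14 genes of the cardiac and lateral list were called between d3 G+ and G- cells, all higher: Gata6 (4.63), Pdgfra (4.26), Gata4 (3.52) and Snai1 (2.76). The list's median difference was 1.91, and that of all genes 0.01. Of the other T-box genes, Tbx3 alone of 14 was called, 4.10 higher (SE 0.71, adjusted p 0.000206). In the presomitic and paraxial list 2 of 16 were called in opposite directions, Dll3 at 1.77 and Tcf15 at -1.56. Of the 17 signal genes 0 were called, with a median difference of 0.42.

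**Figure D2:**
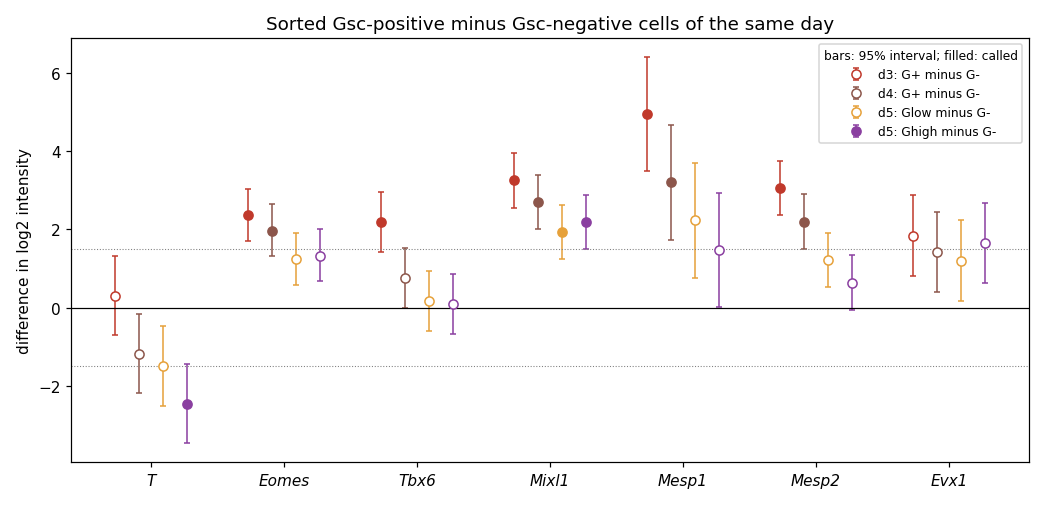
Difference in log2 intensity between Gsc-positive and Gsc-negative cells of the same day (vertical axis) for each gene, with 95% intervals of the limma fit, filled points where the gene was called, and dotted lines at the fold limit of 1.5. T runs from 0.30 at d3 to -2.45 in d5 Ghigh cells, while the points of the other 6 genes lie above 0 throughout, with Mesp1 at 4.94 at d3. The intervals of Tbx6 at d4 and d5 and that of Mesp2 in d5 Ghigh cells include 0.

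At d4, 4 of the 7 genes were called between the sorted populations, against 2.28% of all genes: Eomes, Mixl1, Mesp1 and Mesp2, all higher in G+ cells. For Mixl1 the G- arrays gave 9.03, 8.23 and 7.66 and the G+ arrays 11.21, 10.99 and 10.84, 2.71 higher (SE 0.34, adjusted p 2.27e-06). Mesp1 had 11.32, 9.31 and 8.68 on the G- arrays and 13.11, 13.31 and 12.51 on the G+ arrays. Replicate 1 of d4 G- stood above the other G- arrays for Mesp1, and also for Mesp2 (7.99, beside 6.29 and 6.47), but below every G+ array for both.

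The difference for Mesp1 was 3.21 (SE 0.72, adjusted p 0.00422), and it lost its call without d4 G- replicates 2 or 3 (adjusted p 0.0311 and 0.0524) and without d4 G+ replicates 1 or 2 (0.0274 and 0.0211), and with scaling to the 75th percentile. Mesp2 was 2.20 higher in G+ cells (SE 0.34, adjusted p 5.75e-05) and Eomes 1.97 higher (SE 0.33, adjusted p 0.000142). Tbx6, which was called at d3, differed by 0.76 at d4 (adjusted p 0.379) with overlapping arrays, 6.92 to 9.21 in G- and 8.05 to 9.77 in G+ cells. With only the d4 arrays in the fit, Mixl1 alone kept its call.

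T was the member with the other direction at d4. The G- arrays gave 12.58, 13.15 and 12.60 and the G+ arrays 10.97, 12.46 and 11.37. Every G+ array was below every G- array, although the call was not made, with a difference of -1.18 (SE 0.50, adjusted p 0.241). Within the populations no member was called from d3 to d4: 0 of 7 in G+ cells, against 0.0334% of all genes, and 0 of 7 in G- cells, against 0.00954%. At an unadjusted p of 0.05, limma gave 2 of the 7 in G+ cells (T and Tbx6) and 1 in G- cells (Mesp1). Among all 55681 probes it gave 3183 in G+ and 3123 in G- cells. T was 1.64 lower in d4 than in d3 G+ cells (log2 difference -1.64, SE 0.50, adjusted p 0.288), and its difference in G- cells was -0.16 (SE 0.50). The change of the G+ against G- difference from d3 to d4 was tested as an interaction, which called 0 of 7 members and 0% of all genes. For T the interaction was -1.47 (SE 0.70, unadjusted p 0.0436, adjusted p 1) and for Tbx6 -1.43 (SE 0.53, adjusted p 1), the members with an unadjusted p under 0.05. Among all 55681 probes, 1619 had an unadjusted p under 0.05 in this interaction. So the separation of T between the sorts is not shown to differ between d3 and d4.

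Of the cardiac and lateral list 6 of 14 genes were called at d4, all higher in G+ cells (Gata6 3.50, Gata4 3.40, Pdgfra 3.25 and Tbx20 2.04 the largest), with a median difference of 2.01 beside 0.02 over all genes. Wnt8a was lower in G+ cells (-1.65, SE 0.38, adjusted p 0.00609), the only one of 17 signal genes called at d4. Tcf15 was lower too (-2.16, SE 0.36), the one called of 16 presomitic and paraxial genes. Of the other T-box genes Tbx3 (3.62) and Tbx20 were called, 2 of 14. The pluripotency marker sum was 14.03 to 14.25 in the G- and 11.09 to 12.82 in the G+ population of d4, the endoderm sum was 9.55 to 9.78 and 10.26 to 11.32, and their part in these differences was not tested.

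At d5 fewer members were called between the sorted populations. Against d5 G- cells, 1 of 7 members was called in Glow cells (0.758% of all genes), Mixl1, and 2 of 7 in Ghigh cells (2.58%), with Mixl1 higher and T lower. Both comparisons share the d5 G- arrays. The G- arrays gave 10.98, 12.27 and 12.01 for T, the Glow arrays 9.22, 10.56 and, for replicate 3, a value just above the lowest G- array, and the Ghigh arrays 8.82, 9.45 and 9.64. All Ghigh arrays lay below all G- arrays, while Glow overlapped with both. The difference between Ghigh and G- was -2.45 (SE 0.50, 5.46-fold lower, adjusted p 0.00143), and that between Glow and G- was -1.49 (adjusted p 0.154). The call of T was lost without d5 G- replicate 2 (adjusted p 0.0189), d5 G- replicate 3 (0.0119) or d5 Ghigh replicate 1 (0.0165), with slide as a block (0.0107) and with scaling to the 75th percentile.

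For Mixl1 the d5 G- arrays gave 8.83, 7.98 and 6.99, the Glow arrays 9.80, 9.90 and 9.93, and the Ghigh arrays 10.36, 10.34 and 9.67. It was 1.94 higher in Glow (SE 0.34, adjusted p 0.00102) and 2.19 higher in Ghigh cells (SE 0.34, adjusted p 4.40e-05), and the Glow call was lost without d5 G- replicate 3 (log2 difference 1.47, adjusted p 0.0269) and with scaling to the 75th percentile. With only the arrays compared, no d5 call was made. Eomes was 1.25 and 1.33 higher in Glow and Ghigh cells (adjusted p 0.0381 and 0.01), not called, without overlap. Its second probe was called in both, at 1.88 in Ghigh (adjusted p 4.94e-06) and just past the fold limit in Glow (adjusted p 0.00068). Without d5 G- replicate 1 the brighter Eomes probe was called in both (1.56 and 1.64), without d5 Ghigh replicate 3 in Ghigh (1.52), and with slide as a block in Ghigh (1.55).

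Mesp1 varied most of the 7 genes among the d5 G- arrays (SD 1.58, n = 3) and the d5 Ghigh arrays (SD 1.92, n = 3). The G- arrays gave 9.72, 9.79 and 7.01, the Glow arrays 11.45, 11.39 and 10.38, and the Ghigh arrays 11.70, 11.13 and 8.13, so that replicate 3 was the lowest in each of these populations. Its differences of 2.23 for Glow (adjusted p 0.132) and 1.48 for Ghigh (adjusted p 0.316) did not pass. Mesp2 had 6.17 on Ghigh replicate 3 against 7.47 and 7.35 on the others, and Tbx6 was level across d5, from 7.55 to 7.89. Evx1 was 1.65 higher in Ghigh than in G- cells (adjusted p 0.0488).

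Between Ghigh and Glow cells of d5 no member was called (0 of 7, against 0.267% of all genes), and at an unadjusted p of 0.05 limma gave 0 as well. The intervals were wide for T (-0.96, 95% interval -1.97 to 0.05) and narrower for Eomes (0.08, -0.59 to 0.75). Within G- cells from d4 to d5 no member was called (0 of 7, 0.0286% of all genes, with T and Evx1, 2 genes, at an unadjusted p under 0.05). From d4 G+ to d5 Glow cells 0 of 7 were called (0.138% of all genes), although 6 of 7 had an unadjusted p under 0.05, all lower. Of all 55681 probes, 5449 had an unadjusted p under 0.05 in this comparison. The number was 4115 within G- cells from d4 to d5 and 5016 between Ghigh and Glow cells. From d4 G+ to d5 Ghigh cells 2 of 7 were called (1.15% of all genes), both lower: T by -2.30 (SE 0.50, adjusted p 0.00464) and Mesp2 by -2.12 (SE 0.34, adjusted p 0.000162).

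This call of T was lost without d4 G+ replicates 2 or 3 (adjusted p 0.0487 and 0.0146) without d5 Ghigh replicates 1, 2 or 3 (0.0418, 0.0117 and 0.0116), and with scaling to the 75th percentile. Of the list genes in d5 Ghigh against G- cells, Wnt8a was 3.59 lower (log2 difference -3.59, SE 0.38, adjusted p 1.02e-07) and Fgf4 -2.20, the 2 called of 17 signal genes. Of the cardiac and lateral list 5 of 14 were called, all higher, led by Gata6 (3.37), Pdgfra (2.29) and Myocd (2.28), a coactivator in heart and smooth muscle. In d5 Ghigh cells the endoderm marker sum was 13.56 to 15.56, beside 9.88 to 11.35 in d5 G- cells. The pluripotency sum was 9.78 to 11.06, beside 12.42 to 13.90 in d5 G- cells. Their part in these differences was not tested.

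**Figure D3:**
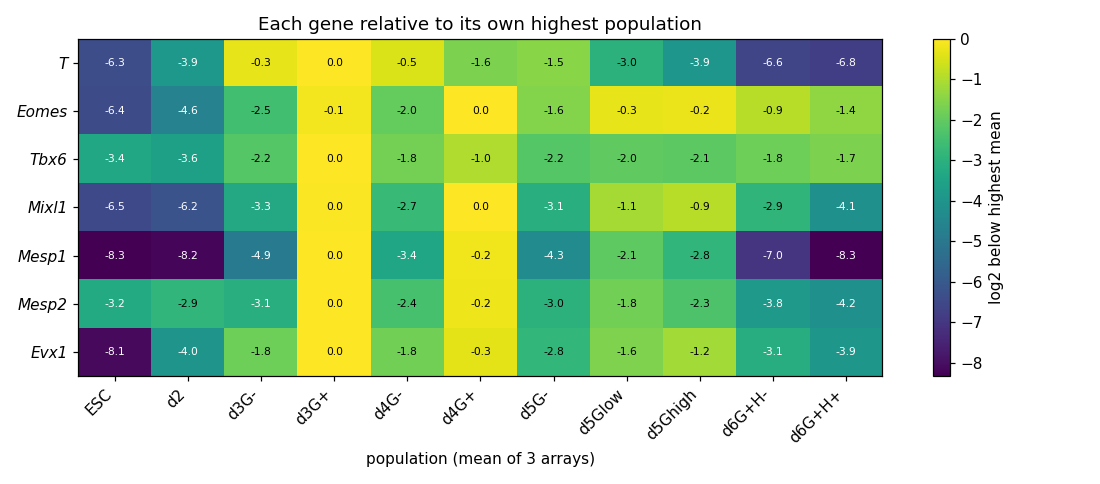
Mean log2 intensity of each gene (rows) in each untreated population (columns), as the distance below that gene's highest population mean, which is written in the cells and set to 0 at the highest. The highest population is d3 G+ for T, Tbx6, Mesp1, Mesp2 and Evx1 and d4 G+ for Eomes and Mixl1.

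By d6 T, Mixl1 and Mesp1 had fallen in both sorted populations, while Eomes did not pass the test in either. Against d5 Ghigh cells, 5 of 7 members were called in G+H+ cells, all lower (4.16% of all genes), and 3 of 7 in G+H- cells, all lower (2.17%). Both comparisons share the d5 Ghigh arrays. Mesp1 fell from the d5 values above to 4.23, 5.09 and 5.19 in G+H+ cells, a difference of -5.49 (SE 0.72, adjusted p 1.28e-06), with 1 of these arrays well above background. In G+H- cells it read 4.84, 6.63 and 6.89, a difference of -4.20 (SE 0.72, adjusted p 0.00019). All d6 arrays were below the lowest d5 Ghigh array.

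T read 6.11, 7.14 and 6.70 in d6 G+H- cells and 5.85, 7.11 and 6.40 in d6 G+H+ cells, differences of -2.65 (SE 0.50, adjusted p 0.000562) and -2.85 (SE 0.50, adjusted p 8.83e-05) from d5 Ghigh. Without d6 G+H- replicate 1 the first of these was not called (adjusted p 0.0112). Mixl1 read 7.64, 8.74 and 8.06 in G+H- and 6.59, 7.13 and 6.91 in G+H+ cells, with differences of -1.98 (adjusted p 0.000203) and -3.25 (adjusted p 2.58e-08). These 3 genes were called in both d6 populations.

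Evx1 and Mesp2 were called in G+H+ cells, with -2.74 (SE 0.50, adjusted p 0.000179) and -1.83 (SE 0.34, adjusted p 0.00022), and were near the limits in G+H- cells, with -1.96 (adjusted p 0.0123) and -1.49 (adjusted p 0.00458). With the replicate number as a block, Evx1 was called in G+H- cells (adjusted p 0.00507), and with slide as a block so were Evx1 (0.00801) and Mesp2 (-1.60, 0.00281). Leaving out d5 Ghigh replicate 3 gave the call of Mesp2 (-1.90, adjusted p 0.000362) and Evx1 (-2.25, 0.00775), and leaving out d6 G+H- replicate 3 that of Evx1 (-2.42, 0.0045). With only the arrays compared, no member was called in G+H-, and Mesp2 and Evx1 were not in G+H+ cells. Mesp2 was well above background on 1 of the 3 d6 G+H+ arrays. Its G+H+ call there was lost with a normexp offset of 50 and without background correction.

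Eomes read 13.10, 13.16 and 13.33 in G+H- and 12.53, 12.78 and 12.88 in G+H+ cells, with -0.69 (adjusted p 0.286) and -1.16 (adjusted p 0.0143) against d5 Ghigh. Its second probe gave -1.47 in G+H+ cells (SE 0.25, adjusted p 7.86e-05) without overlap, just short of the fold limit, and -0.91 in G+H- cells (adjusted p 0.0228). Tbx6 was the one member whose d6 means, 7.99 and 8.18, were not below that of d5 Ghigh, 7.72. Between the d6 populations no member was called (0 of 7, and 0% of all genes), and Mixl1 was the 1 member with an unadjusted p under 0.05, at -1.27 (SE 0.34, adjusted p 0.41) without overlap of its arrays. With the replicate number as a block Mixl1 was again the 1 such member (adjusted p 0.209). Without the block, 2514 of all 55681 probes had an unadjusted p under 0.05. Within same-numbered arrays all 7 genes kept 1 direction in all 3 pairs, but the share of all genes that do so was not counted. Evx1 was lower in G+H+ cells in each pair (-0.80, -0.87 and -0.67, unadjusted p 0.102 with the block), and so was Mesp1 (-0.61, -1.54 and -1.70, unadjusted p 0.0769), while Tbx6 was higher in each (0.06, 0.23 and 0.26). The 1 slide with both populations holds arrays of different replicate numbers. On it T (1.00), Mesp1 (0.24), Evx1 (0.03) and Tbx6 (-0.48) went the other way, and Eomes, Mixl1 and Mesp2 the same way. So limma found no difference that passed, which does not show that the populations were alike.

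Other cell type markers moved with the fall to d6. The sum of 4 visceral endoderm markers was 7.71 to 7.82 in d5 Ghigh cells, 9.04 to 9.37 in d6 G+H- and 9.67 to 10.58 in d6 G+H+ cells. The endoderm sum of 13.56 to 15.56 in d5 Ghigh cells was exceeded in G+H+ cells, by 16.28 to 16.43, and overlapped with G+H- cells, at 15.52 to 16.19. The sum of 4 blood and endothelium markers was 9.03 to 9.36 at d5 Ghigh. At d6 it was 10.07 to 10.99 in G+H- and 10.19 to 10.57 in G+H+ cells. This rise came with Gata1 (means 8.60, 10.24 and 10.15), while the means of Tal1, Cdh5 and Pecam1 were lower in both d6 populations. The sum of 5 neural markers was 11.45 to 11.65, 12.19 to 12.64 and 11.70 to 12.30. Sox3 was its brightest gene (means 11.04, 12.13 and 11.81). Zic1 and Sox1 had lower means at d6, and Pax6 and Neurog2 were mostly not well above background. The pluripotency sum overlapped between these populations. The part of these markers in the lower members was not tested.

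Of the 17 signal genes 7 were called in d6 G+H+ against d5 Ghigh cells, 6 lower and 1 higher. Bmp4 was lowest at -5.76 (SE 0.68, adjusted p 2.26e-07), then Sp5 at -3.85 (SE 0.59) and Tdgf1, a Nodal co-receptor, at -3.18 (SE 0.50), while the Nodal antagonist Lefty2 was 3.40 higher (SE 0.58). The list's median was -0.72, beside -0.01 over all genes. In the cardiac and lateral list 9 of 14 were called, 7 lower and 2 higher, led by Hand1 (-4.12), Foxf1 (-3.95) and Etv2 (-3.56). In the presomitic and paraxial list 4 of 16 were called, 3 lower, with Cdx2 at -3.77 and Rspo3 at -3.64, and 1 higher, the Notch ligand Dll1 at 2.27. Of the other T-box genes 3 of 14 were called, Tbx1 higher (4.26, SE 0.41) and Tbx3 and Tbx5 lower (-2.70 and -2.55).

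Compared with ESCs, d6 G+H+ cells had 4 of 7 members called, all higher, against 11.1% of all genes. Eomes was 5.05 higher (SE 0.33, 33.1-fold, adjusted p 3.44e-14), with 4.28 for its second probe, and Evx1 was 4.20 higher (SE 0.50, 18.4-fold, adjusted p 3.36e-08). Mixl1 was 2.33 higher (95% interval 1.64 to 3.03, adjusted p 1.28e-06). No ESC array was well above background for it, and with each ESC array counted at no less than its dimmest probe well above background the estimate was 3.99-fold. Tbx6 was 1.70 higher (SE 0.38, adjusted p 0.000548), but its second probe gave 0.40 (adjusted p 0.129), and with the mean of both probes the gene was not called. An offset of 50 ended the calls of Tbx6 and Mixl1. T (-0.45, 95% interval -1.46 to 0.56), Mesp1 (-0.01) and Mesp2 (-0.93, adjusted p 0.0429) were not called.

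In the order of the untreated populations T was highest in d3 G+ (13.24), d3 G- (12.94) and d4 G- cells (12.78), and these 3 overlapped, while d5 G- (11.75) and d4 G+ (11.60) came next, clear of d4 G-. Of its 10 neighbouring pairs in this order, 8 overlapped. Eomes was highest in d4 G+ (14.11), d3 G+ (13.96), d5 Ghigh (13.88) and d5 Glow (13.80) cells, which overlapped in turn, and d6 G+H- (13.20) was clear below them. Mesp1 and Mesp2 each had d3 G+ and d4 G+ on top, overlapping, with a gap to d5 Glow.

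Mixl1 had d4 G+ (11.01) and d3 G+ (10.96) overlapping at the top, a gap to d5 Ghigh and Glow, and a further gap to the G- populations and d6 G+H-. For Evx1, d3 G+ (13.57) was clear of d4 G+ (13.22), and d4 G+ clear of d5 Ghigh (12.40). For Tbx6, 9 of 10 neighbouring pairs overlapped, the most of the 7 genes.

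Over the 11 untreated population means, Mixl1 and Mesp1 had the highest correlation among the members (Pearson r 0.92), with 0.91 for Eomes and Mixl1 and 0.89 for Mesp1 and Mesp2, and T and Eomes had the lowest (0.32). These means share arrays of the same differentiation and are no independent points, and the same holds for the genes most like each member out of 15488 compared. T was closest to Hoxd4 (0.982), Hoxd9 (0.981) and Mfsd2a (0.980), and Eomes to Smo (0.990), Rftn1 (0.988) and Zfp202 (0.987). Mixl1 was closest to Gas1 (0.976), Prkd1 (0.974) and Tspan3 (0.971). Mesp1 was closest to Aplnr (0.990), a receptor of early mesoderm, Snai1 (0.989) and Chst2 (0.979), and Mesp2 to S1pr5 (0.980), Cyp26b1 (0.980) and Bhlhe22 (0.957). Evx1 was closest to Hsd17b7 (0.978), Csnk1g2 (0.976) and Pom121 (0.972). Tbx6 had the lowest values, with Hmgxb3 (0.945), Stard13 (0.939) and Srf (0.937).

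Mixl1 and Evx1 were lower in the d6 cultures that had EPZ6438 during differentiation. EZH2 is the catalytic subunit of PRC2, which places the repressive mark H3K27me3. Of the 7 members 2 were called between ADE_EPZ and Control, both lower, against 2.78% of all genes, and 1 of 7 between ES_EPZ and Control, lower, against 0.429%. Both comparisons share the Control arrays. Mixl1 read 9.66, 9.27 and 9.90 in Control, 8.04, 8.37 and 7.27 in ES_EPZ and 6.00, 6.27 and 6.52 in ADE_EPZ cultures. The 3 regimens did not overlap, and the differences from Control were -3.34 for ADE_EPZ (SE 0.34, 10.2-fold lower, adjusted p 1.24e-07) and -1.72 for ES_EPZ (SE 0.34, 3.28-fold lower, adjusted p 0.00565). On the 3 slides, which hold 1 array of every regimen, the difference of Mixl1 between ADE_EPZ and Control was -3.90 to -2.75. Its sign there follows from the lack of overlap and is no separate check.

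The call of Mixl1 in ES_EPZ was lost without Control replicate 1 or 3 (adjusted p 0.0288 and 0.0495), without ES_EPZ replicate 1 or 3 (0.0201 and 0.117), with scaling to the 75th percentile, and with the untreated arrays out of the fit. Evx1 read 11.81, 11.75 and 11.61 in Control, 10.56, 11.02 and 8.53 in ES_EPZ and 9.51, 9.84 and 8.41 in ADE_EPZ cultures. Replicate 3 was the lowest in both treated groups. Its difference was -2.47 in ADE_EPZ (SE 0.50, 5.54-fold lower, adjusted p 0.000916) and -1.69 in ES_EPZ (SE 0.50, adjusted p 0.0775). Without ADE_EPZ replicate 3, Evx1 was not called (-2.05, adjusted p 0.0158), nor was it with the untreated arrays out of the fit.

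Eomes read 14.07, 13.52 and 13.76 in Control and 12.53, 12.43 and 12.17 in ADE_EPZ cultures, without overlap, a difference of -1.41 (SE 0.33, adjusted p 0.00358) that is under the fold limit. Its second probe gave -1.58 (SE 0.25, adjusted p 5.82e-05), which was called, and so was the brighter probe without Control replicate 2 (-1.54, adjusted p 0.00596). T (5.44 to 6.63), Tbx6 (7.45 to 8.32) and Mesp2 (5.75 to 6.51) kept to a narrow range over all 9 of these arrays, with no call. Mesp1 lay between 7.38 and 9.69, with -0.90 for ADE_EPZ (95% interval -2.37 to 0.56, adjusted p 0.583).

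Between ADE_EPZ and ES_EPZ, 0 of 7 members were called (0.129% of all genes), with Mixl1 and Eomes, 2 genes, at an unadjusted p under 0.05. Among all 55681 probes, 4995 had an unadjusted p under 0.05. Mixl1 was close, at -1.63 (SE 0.34, adjusted p 0.0125). It was called with the replicate number as a block (adjusted p 0.00669), with slide as a block (0.00485) and without ES_EPZ replicate 3 (-1.94, 0.00495). Same-numbered arrays of ADE_EPZ and ES_EPZ share a slide, so both blocks pair the same arrays here and are no separate checks. The endoderm marker sum was 13.72 to 14.25 in Control, 15.11 to 15.87 in ES_EPZ and 15.45 to 15.88 in ADE_EPZ cultures. It was higher in both treated groups than in Control, and its 4 genes were well above background on every array. Cer1 was the brightest of them, with means of 12.65 in Control, 14.89 in ES_EPZ and 15.06 in ADE_EPZ cultures. Hhex was higher in both as well (10.10, 11.65 and 12.34). Sox17 was level between Control (11.54) and ES_EPZ (11.53) and higher in ADE_EPZ cultures (12.36). Foxa1 moved less in ES_EPZ (12.54, beside 12.24 in Control) than in ADE_EPZ cultures. The pluripotency sum was 9.44 to 9.99 in Control, 9.47 to 10.92 in ES_EPZ and 10.68 to 11.13 in ADE_EPZ cultures. ADE_EPZ did not overlap with Control but overlapped with ES_EPZ. The neural sum was 12.31 to 12.41 in Control, and lower in ADE_EPZ (11.64 to 11.77) but higher in ES_EPZ cultures (12.68 to 12.92). Sox3 was its brightest gene, with means of 12.15 in Control, 11.37 in ADE_EPZ and 12.64 in ES_EPZ cultures. Zic1 (9.24, 8.98 and 9.28) and Sox1 (6.39, 6.35 and 6.18) moved less. Pax6 and Neurog2 were not well above background on any treated array. The sum of 4 anterior streak markers was 13.69 to 14.11 in Control, 14.27 to 14.77 in ES_EPZ and 14.48 to 15.08 in ADE_EPZ cultures. In the same order, its brightest gene Foxa2 had means of 13.04, 13.38 and 13.79, Gsc 11.98, 12.77 and 12.97, and Lhx1 10.73, 12.05 and 12.12. Cxcr4 was level (9.85, 9.85 and 9.90). The visceral endoderm and the blood and endothelium sums overlapped between ADE_EPZ and Control. The part of these markers in the lower Mixl1 and Evx1 was not tested.

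Of the 17 signal genes 6 were called between ADE_EPZ and Control, 5 lower and 1 higher: Bmp4 at -3.77 (SE 0.68), Sp5 at -2.97 (SE 0.59), Wnt3 at -2.46 (SE 0.47), and Lefty2 higher at 2.23 (SE 0.58) among them. In ES_EPZ 0 of 17 were called, with a median of -0.20. The other T-box genes had 4 of 14 called in ADE_EPZ, with Tbx1 (2.97, SE 0.41) and Tbx15 (2.00, SE 0.24) higher and Tbx3 (-3.34, SE 0.71) and Tbx5 (-2.46, SE 0.39) lower. The cardiac and lateral list had 3 of 14 lower (Tbx5, Etv2 at -2.20 and Snai1 at -1.80), and the presomitic and paraxial list 3 of 16, with Rspo3 (-2.75) and Meox1 (-2.44) lower and Dll1 (1.91) higher.

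**Figure D4:**
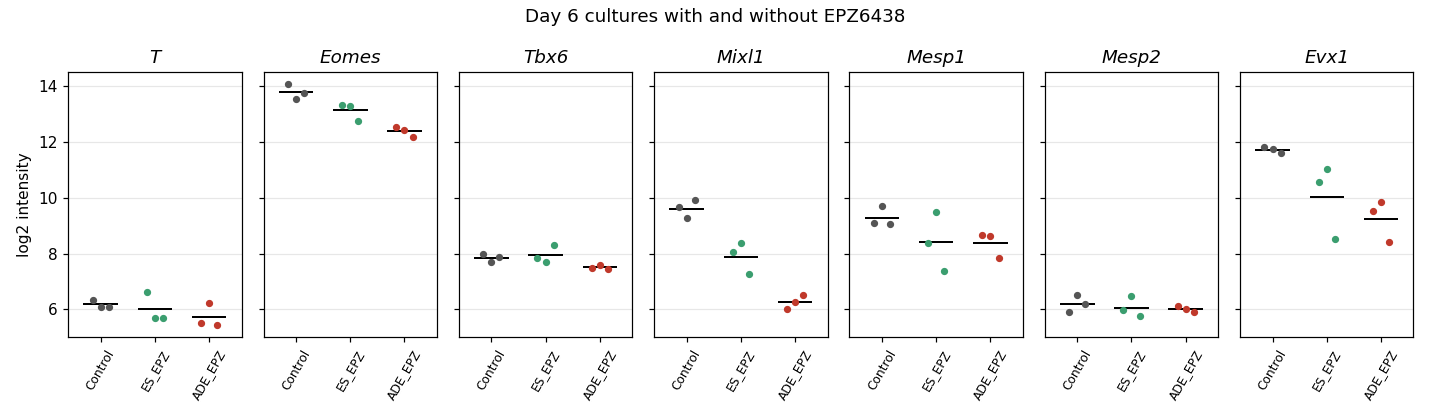
Log2 intensity of each gene (vertical axes, one scale) in the d6 cultures of the Control, ES_EPZ and ADE_EPZ regimens, with a point for each array and a line at the mean of 3. Mixl1 steps down from 9.61 in Control to 7.89 in ES_EPZ and 6.26 in ADE_EPZ, while Mesp2 has means of 6.21, 6.06 and 6.01.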

How the data were processed

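RNA of 14 groups with 3 arrays each was measured on Agilent one-colour arrays. The authors deposited the scanner intensity of each array and 1 table of log2 values, made with limma (normexp with offset 10, then quantile normalisation). The log2 table was used, with repeat spots of a probe averaged to 55681 probes. Values recomputed here from the deposited intensity files correlated with it at 0.999989 or above. Probes were assigned to genes by RefSeq accession, with symbols from GRCm38.p6 used as names only. Groups came from the labels. With limma 3.58.1 in R 4.3.3, 1 mean per group was fitted over all 42 arrays by lmFit and eBayes (two-sided), with Benjamini-Hochberg adjustment over all probes of each of 20 comparisons and 1 interaction. Calls needed a log2 difference of at least 1.5 besides an adjusted p of 0.01 or below. An exact permutation test of 3 arrays against 3 cannot go below a p of 0.1 and was not used. The number of arrays limits the precision.

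The members, the 4 gene lists and the tests were chosen with earlier results of these data known. Genes named beside the members are, for each member, the 3 with the highest correlation over the untreated means, and up to 4 called genes of each list with the largest change. Replicate numbers are shared between groups. For 11 of the comparisons the deviations of all 3 same-numbered pairs of arrays correlated above 0.1, and for these the fit with the replicate number as a block is given beside a result where it changes the call. Values given with no such remark are from the fit without it. The trophoblast marker list holds Eomes and was not used. Alternatives were other background corrections and scaling, probe filters, smaller fits, slide or replicate as a block, other thresholds, and each array left out. The procedure was tested on simulated data.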

Additional observations from a re-analysis of the deposited data

How the results depend on the processing

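Of 44 calls of a member in a comparison, 18 held under all alternatives and with any array left out, and 0 of the 44 reversed. In all 44 the arrays of the groups compared did not overlap, so the direction on slides that held both groups could not differ and is no separate check. The sizes on these slides were at least 0.58. Differences that were not called changed sign 44 times, from values of at most 1.40. The highest population of each of the 7 members was the same with offsets of 10 and 50, without background correction and with scaling to the 75th percentile. With only the compared arrays in the fit, which leaves fewer arrays to estimate the spread, the number of called members was 1 from ESCs to d2, 2 from d2 to d3 G-, 3 between the d3 sorts, 1 between the d4 sorts, 0 for d5 Glow and 0 for d5 Ghigh against G-, 0 from d4 G+ to d5 Ghigh, 0 and 3 from d5 Ghigh to d6 G+H- and G+H+, and 0 for ES_EPZ. With only the series compared it was 1 from d4 G+ to d5 Ghigh, 1 for ADE_EPZ and 0 for ES_EPZ. Scaling to the 75th percentile gave 0 for d5 Glow against G-, 1 from d4 G+ to d5 Ghigh and 0 for ES_EPZ, and an offset of 50 gave 2 for d6 G+H+ against ESCs. An adjusted p of 0.05 gave 1 from d4 G+ to d5 Glow (Mesp2) and 1 between ADE_EPZ and ES_EPZ, where the filter on background also gave 1 (Mixl1). The second probes of Eomes and Tbx6, an alternative chosen after seeing the data, gave 2 for d5 Glow against G-. The cause of these moves was not tested. With slide as a block the number was 3 from d2 to d3 G-, 5 from d5 Ghigh to d6 G+H- and 1 between ADE_EPZ and ES_EPZ.

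With the replicate number as a block, 1 member (Mixl1) was called between ADE_EPZ and ES_EPZ where 0 were called without it, Evx1 was gained from d5 Ghigh to d6 G+H-, and the block changed no other call.

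With each array left out, the number of called members ranged from 2 to 3 for d2 against ESCs, 3 to 4 for d3 G- against d2, 3 to 4 between the d4 sorts, 0 to 2 for d5 Glow and 1 to 3 for d5 Ghigh against G-, 1 to 2 from d4 G+ to d5 Ghigh, 2 to 5 from d5 Ghigh to d6 G+H-, 1 to 3 for ADE_EPZ and 0 to 1 for ES_EPZ against Control, and 0 to 1 between them. Before d3 the probes of Mixl1 and Mesp1 were mostly not well above background, which limits the size of their later rise that can be read.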
